A study of Mus musculus with 9 samples.

Results

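The Hox genes of the renal cortex were described in adult mice, with their level in every library and their differences between a nondiabetic group, a diabetic group and a diabetic group given rosiglitazone. The members were all genes of the deposited mRNA values whose symbol was Hoxa, Hoxb, Hoxc or Hoxd followed by a number. Described here are 38 genes with 61 transcripts, of 21950 genes with mRNA values, in 4 clusters, with 10 (HoxA), 10 (HoxB), 9 (HoxC) and 9 (HoxD) genes. All mice were males of the C57BL/KsJ background, 15 weeks old, and the tissue was the renal cortex. Control mice (n = 3) were db/m littermates, which carry the db mutation of the leptin receptor gene (Leprdb) on 1 of 2 alleles, and whether they were gavaged with vehicle is not given in the sources used here. dbdb mice (n = 3) were homozygous for it (BKS.Cg-Dock7m+/+Leprdb/Nju), were described in the labels as having type 2 diabetes and received vehicle by gavage. dbR mice (n = 3) had the same homozygous genotype and were gavaged with 20 mg/kg/day of rosiglitazone, which activates the nuclear receptor PPARγ, for 8 weeks from 7 weeks of age. The db mutation is in every cell of these animals from conception, there was no db/m group given rosiglitazone, and each library came from the cortex of 1 mouse.

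Hox genes encode homeodomain transcription factors, and vertebrates carry them in 4 chromosomal clusters made by duplication of 1 ancestral cluster, so that genes with the same number in different clusters are paralogues. Within a cluster the order of the genes follows their order of expression along the body axis, from low numbers at the head to high numbers at the tail, and all genes of a cluster are read from the same strand. In the kidney they are known from development, where paralogue group 11 is needed for the outgrowth of the ureteric bud and group 10 for the stroma. The adult kidney goes on transcribing many of them. Polycomb complexes keep silent Hox genes silent, trithorax proteins keep active ones active, retinoic acid switches on low-numbered genes in the embryo, and the TALE homeodomain proteins bind DNA together with Hox proteins.

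Levels were read as FPKM, the fragments of a transcript scaled to its length and to the mapped fragments of the library, summed over the mRNA transcripts of a gene. The step between the lowest values put the depth at an estimated 23900000 to 29600000 fragments per library, and mitochondrial genes held 26.9% to 32.8% of the summed mRNA FPKM. Of the 10 proximal tubule markers looked for, all 10 were detected in all libraries, with a summed level of 4526 to 4696 FPKM in control, 5216 to 6854 in dbdb and 5821 to 5888 in dbR. Differences were tested with limma on log2(FPKM + 0.1) over the 14537 genes with a mean of at least 0.1 FPKM, and a gene was called at a Benjamini-Hochberg adjusted p under 0.05. Of the 38 members 30 passed this filter, none of them with a group mean under 0.1 FPKM, and log2 fold changes below are on the log2(FPKM + 0.1) scale. In whole cortex, fewer cells of a type and less RNA per cell cannot be told apart.

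Hox transcripts in the adult cortex came mainly from the middle of the clusters. Of the 38 genes, 6 had a mean over the 9 libraries of at least 10 FPKM, 20 lay between 1 and 10, 4 between 0.1 and 1, and 8 below 0.1. The median of the 30 genes tested was 3.46 FPKM, beside 7.08 FPKM over all genes tested. By position, paralogues 4 to 8 held 55.5% to 60.4% of the summed Hox FPKM of a library, paralogues 9 to 13 held 33.7% to 38.4% and the lower paralogues 5.1% to 6.8%.

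**Figure D1:**
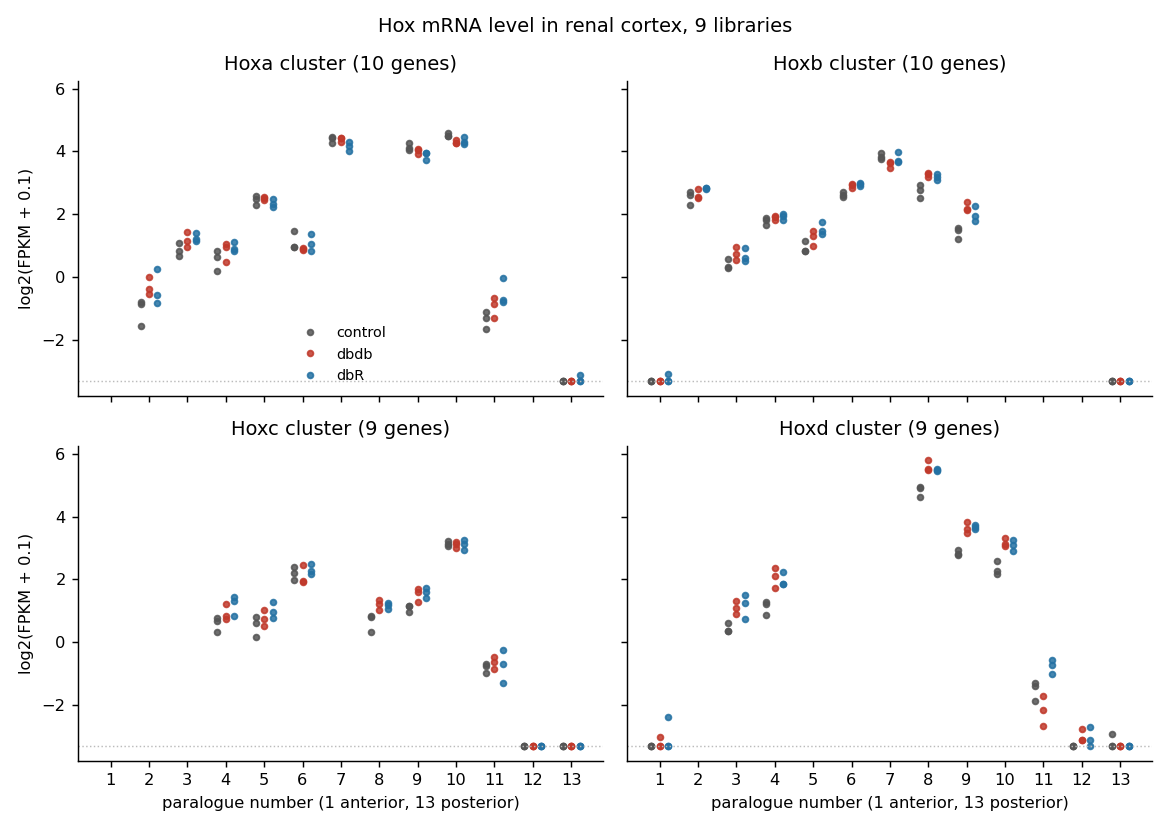
Level of the 38 Hox genes as log2(FPKM + 0.1) on the vertical axis against its paralogue number, in 4 panels for the 4 clusters; each point is 1 library, grey for control, red for dbdb and blue for dbR, and the dotted line marks 0 FPKM. The highest gene of each cluster is one of paralogues 7 to 10 (Hoxa10, Hoxb7, Hoxc10 and Hoxd8), paralogues 12 and 13 lie at or near 0, and Hoxd8 is the highest member with 24.6 to 55.1 FPKM.

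Hoxd8 was the most abundant member with a mean of 40.4 FPKM and was highest in every library. The next 3 were genes of the HoxA cluster. Hoxa10, of the paralogue group known from the renal stroma, measured 22.3, 22.2 and 24.2 FPKM in control, 19.3, 19 and 20.4 in dbdb, and 19.8, 18.6 and 21.9 in dbR. Hoxa7 measured 21.9, 21.6 and 19 FPKM in control, 19.6, 21.6 and 21.4 in dbdb, and 19.8, 16.1 and 17.9 in dbR. Hoxa9 measured 19.2, 17.3 and 16.5 FPKM in control, 16.6, 15 and 16.9 in dbdb, and 15.5, 13.2 and 15.4 in dbR. Hoxa10 and Hoxa7 overlapped over the 9 libraries (18.6 to 24.2 and 16.1 to 21.9 FPKM), so their order is not set beyond their spread. Hoxa9 was below both in every library. Hoxb7, at 14.2, 15.3 and 13.5 FPKM in control, 12.6, 11.1 and 12.2 in dbdb, and 12.5, 15.6 and 12.9 in dbR, came next and overlapped Hoxa9. Hoxd9 followed at a mean of 10.6 FPKM. Over the 30 genes tested, means thus ran from 0.29 FPKM for Hoxd11 to 40.4 FPKM for Hoxd8.

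The members with the highest numbers, and Hoxb1 and Hoxd1 at the other end, were silent or nearly so. Hoxb13, Hoxc12 and Hoxc13 were listed at 0 in all 9 libraries. Hoxa13, Hoxb1 and Hoxd13 were above 0 in 1 library each, with at most an estimated 2 fragments, Hoxd1 in 2 libraries, and no library of these 8 genes exceeded 0.0935 FPKM. Of the paralogue group 11, Hoxa11 had a mean of 0.448 FPKM, Hoxc11 of 0.51 FPKM and Hoxd11 of 0.29 FPKM. Hoxd11 was the lowest member above the filter, and Hoxd12, at a mean of 0.0165 FPKM, the highest below it. Hoxd12 measured 0, 0 and 0 FPKM in control, 0.0482, 0.0157 and 0.0153 in dbdb, and 0.0531, 0 and 0.0165 in dbR, and was thus listed at 0 in all control libraries.

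Clusters differed in how their summed level lay between the groups. Summed over its 9 genes, HoxD measured 45.4, 46.9 and 39.9 FPKM in control, 70.2, 71.1 and 86.3 in dbdb, and 73.1, 70.6 and 72.7 in dbR. This was 23.4% to 25.8% of all Hox FPKM in control libraries, 33.8% to 38.4% in dbdb and 33.7% to 35.0% in dbR, with no overlap of control with either diabetic group. HoxA, the largest share in control with 40.2% to 41.3%, held 31.3% to 33.1% in dbdb and 29.5% to 32.2% in dbR. HoxA itself summed to 72.8 ± 2.26 FPKM (SD, n = 3) in control, 69.0 ± 1.345 in dbdb and 65.3 ± 4.09 in dbR. The sums of HoxB (41.8 ± 2.24, 47.0 ± 1.71 and 49.4 ± 2.29 FPKM) and HoxC (20.0 ± 0.666, 21.8 ± 1.69 and 23.1 ± 1.74 FPKM) moved less than that of HoxD. These sums are descriptions and were not tested.

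**Figure D2:**
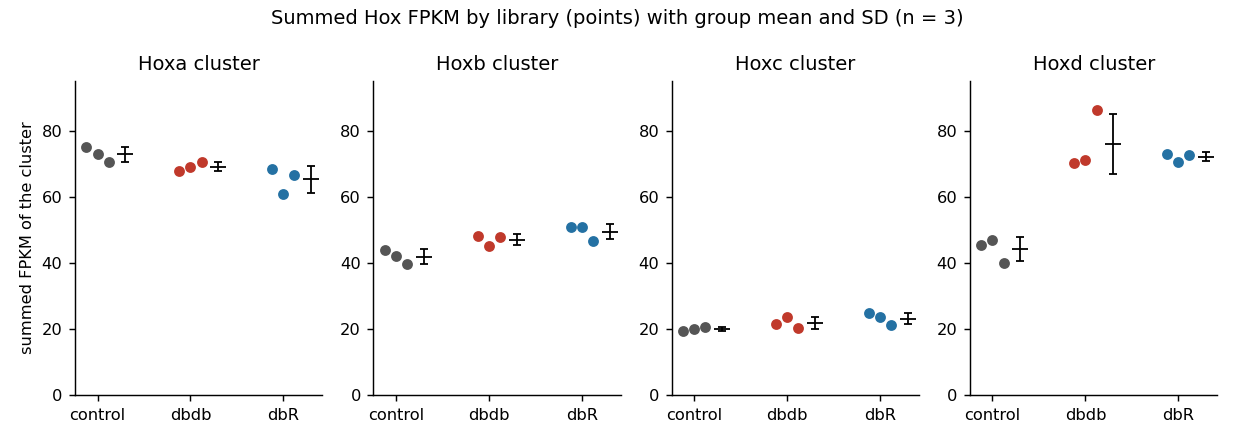
Summed FPKM of each Hox cluster on the vertical axis, by group; points are libraries (n = 3 per group), and the bar is the mean with its SD. HoxD lies at 39.9 to 46.9 FPKM in control and at 70.2 to 86.3 FPKM in dbdb, while HoxA libraries lie between 60.7 and 74.9 FPKM in all groups.

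The HoxD cluster spans chr2:74668310-74765142 (GRCm38), 96.8 kb on the plus strand, with Hoxd13 first and Hoxd1 last. The stretches before the annotated starts of its 6 tested genes are shown because the calls of the cluster fall on 5 of them and not on Hoxd11. They are RefSeq's 250 bases upstream of each start (GRCm38.p6), 5′ to 3′, cut where an annotated coding-gene exon begins, in lower case with 2 motifs in capitals: AGGTCA or its reverse complement TGACCT, the core element of nuclear receptors such as PPARγ and the retinoic acid receptors, and CCAAT or its reverse complement ATTGG, a common promoter element.
Hoxd3 (chr2:74711743-74711926, plus strand): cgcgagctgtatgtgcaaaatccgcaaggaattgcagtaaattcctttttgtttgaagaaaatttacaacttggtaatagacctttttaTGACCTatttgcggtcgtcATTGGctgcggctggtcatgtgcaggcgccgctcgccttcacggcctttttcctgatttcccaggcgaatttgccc
Hoxd4 (chr2:74721728-74721977, plus strand): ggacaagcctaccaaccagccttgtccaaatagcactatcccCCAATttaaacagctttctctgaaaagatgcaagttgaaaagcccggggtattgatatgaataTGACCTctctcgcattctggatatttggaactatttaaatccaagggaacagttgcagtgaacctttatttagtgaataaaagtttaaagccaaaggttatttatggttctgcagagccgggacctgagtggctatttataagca
Hoxd8 (chr2:74704365-74704614, plus strand): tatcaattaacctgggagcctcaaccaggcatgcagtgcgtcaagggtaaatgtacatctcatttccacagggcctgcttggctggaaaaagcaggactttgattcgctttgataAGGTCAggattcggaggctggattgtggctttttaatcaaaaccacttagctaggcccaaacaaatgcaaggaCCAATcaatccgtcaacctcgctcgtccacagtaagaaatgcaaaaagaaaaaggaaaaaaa
Hoxd9 (chr2:74697513-74697726, plus strand): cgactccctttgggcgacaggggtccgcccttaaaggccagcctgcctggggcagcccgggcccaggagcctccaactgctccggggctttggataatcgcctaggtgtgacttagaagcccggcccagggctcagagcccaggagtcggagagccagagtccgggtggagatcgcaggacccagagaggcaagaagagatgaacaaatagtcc
Hoxd10 (chr2:74691641-74691890, plus strand): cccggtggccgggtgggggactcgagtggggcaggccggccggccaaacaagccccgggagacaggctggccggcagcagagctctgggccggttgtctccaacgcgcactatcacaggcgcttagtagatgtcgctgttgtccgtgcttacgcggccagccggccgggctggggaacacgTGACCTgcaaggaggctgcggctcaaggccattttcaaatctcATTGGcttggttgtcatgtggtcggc
Hoxd11 (chr2:74679308-74679556, plus strand): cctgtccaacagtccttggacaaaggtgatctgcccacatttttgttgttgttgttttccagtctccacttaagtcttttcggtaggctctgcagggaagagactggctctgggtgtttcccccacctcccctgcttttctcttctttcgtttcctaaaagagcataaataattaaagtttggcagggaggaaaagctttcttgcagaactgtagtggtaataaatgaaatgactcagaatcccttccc
The windows of Hoxd3, Hoxd4, Hoxd8 and Hoxd10 hold 1 AGGTCA and 1 CCAAT each, and those of Hoxd9 and Hoxd11 hold neither. RefSeq gives 2 starts for Hoxd11, and the one next to the start of its deposited transcript is shown. Over RefSeq's table of mouse promoters, AGGTCA on either strand was in 14% of 32851 windows of 250 bases and CCAAT in 33.8%, beside 6 and 14 of the 24 Hox windows that the table holds for 22 members, and 4 and 7 of the 10 HoxD windows. A pair of AGGTCA copies on the same strand with 1 base between them, the arrangement PPARγ binds, was in 0.0335% of all windows, with 5 bases between them, as retinoic acid receptors bind, in 0.00913%, and either was in 0 of the 24. GGGCGG was in 32.7% of all windows and 10 of 24, TATAAA in 12.4% and 4 of 24, and TGATNNAT, the joint site of TALE and Hox proteins, in 7.7% and 4 of 24. Median GC content was 58.6% in the Hox windows and 52.4% over all. These matches are descriptions of letters, and binding was not measured.

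The comparison dbdb vs. control asks how Hox expression differs between diabetic and nondiabetic cortex. Of the 30 members tested, 10 were upregulated and 1 was downregulated in dbdb. Over all genes tested, 13.1% were called higher and 13.4% lower. With mitochondrial genes left out and equal sums, these shares were 24.0% and 6.67%, with 10 members higher and 0 lower. HoxD had 5 of 6 tested genes upregulated, HoxB 3 of 8, HoxC 2 of 7 and HoxA 0 of 9, and the gene called lower was Hoxa10. The median log2 fold change was 0.77 over the HoxD genes, 0.30 over HoxB, 0.24 over HoxC, 0.06 over HoxA and 0.30 over all 30, beside -0.00301 over all genes tested. Libraries of the 2 groups did not overlap for 11 members that were higher in dbdb and 3 that were lower, beside 21.2% of all genes in each direction. With control replicate 1, dbdb replicate 1 or dbdb replicate 3 left out, 7 members were called higher and 0 lower. Over all genes 10.4% to 11.2% were then called higher and 10.3% to 11.1% lower. With the highest transcript of each gene in place of the sum, 3 members were called higher (Hoxd8, Hoxd9 and Hoxd10) and 0 lower. Of all transcripts in that fit 4.35% were called higher and 4.88% lower. In that fit the second transcript of Hoxa10 was called lower, at -0.26 (adjusted p = 0.0392), and that of Hoxb8 higher, at 0.79 (adjusted p = 0.0372). With quantile normalization 7 members were called higher, without Hoxc8, Hoxc9 and Hoxd3. Hoxc8 and Hoxc9 were not called with the 6 libraries of the comparison alone, nor Hoxc9 and Hoxd3 with no filter on low values.

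**Figure D3:**
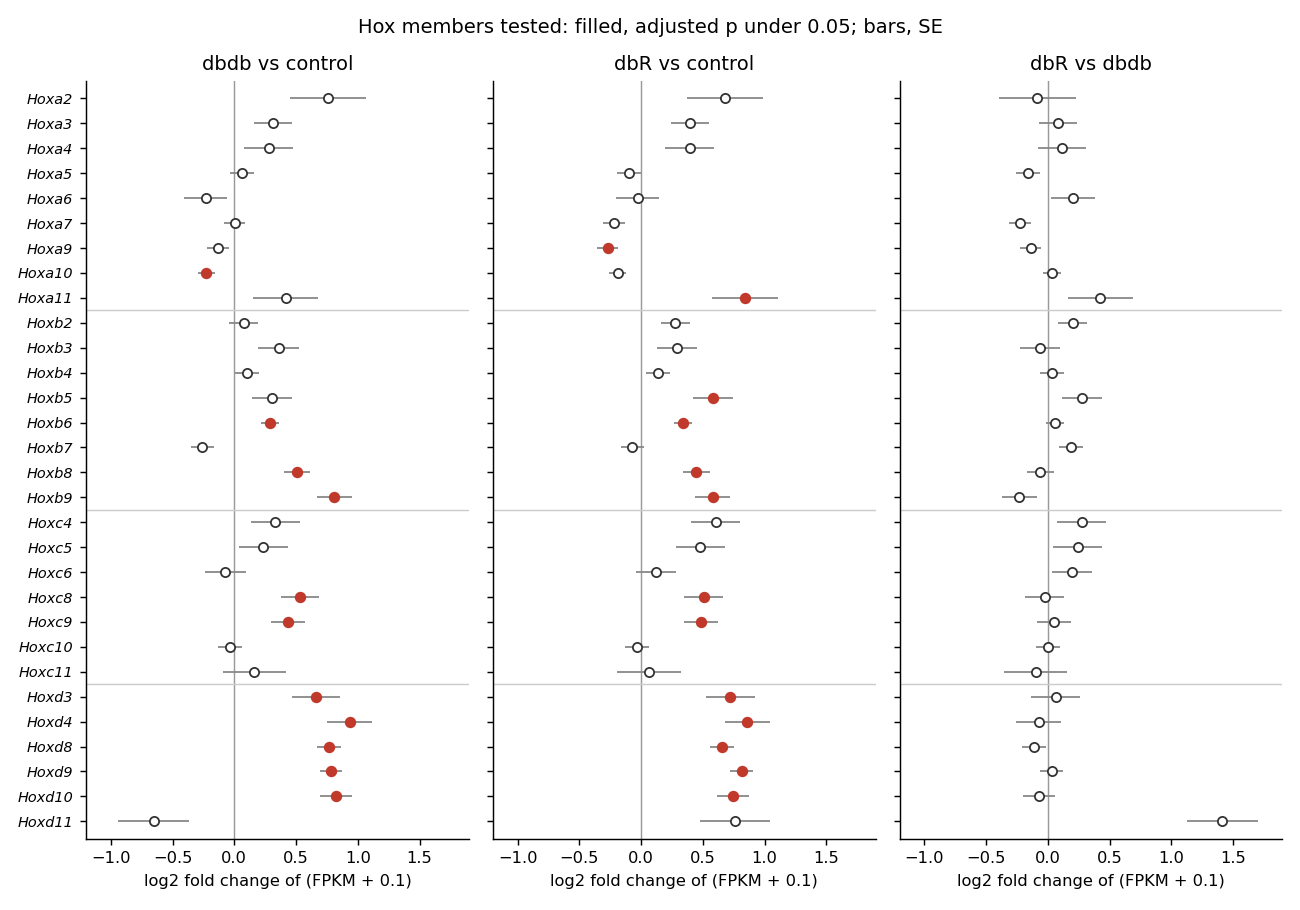
Log2 fold change of (FPKM + 0.1) with its SE (bars) for the 30 Hox genes tested, in rows by cluster, for dbdb vs. control, dbR vs. control and dbR vs. dbdb; filled points have an adjusted p under 0.05. Hoxd3, Hoxd4, Hoxd8, Hoxd9 and Hoxd10 are filled and lie between 0.65 and 0.93 in both comparisons with control, and no point is filled in dbR vs. dbdb.

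The 5 upregulated HoxD genes are consecutive members of the cluster, from Hoxd10 to Hoxd3, within 56.5 kb (chr2:74691924-74748442). Hoxd8 (ENSMUSG00000027102, chr2:74704615-74707933), the most abundant Hox gene of the cortex, measured 30.2, 30.3 and 24.6 FPKM in control, 44.2, 45.8 and 55.1 in dbdb, and 45.2, 44.6 and 43.9 in dbR. All dbdb libraries lay above all control libraries, with dbdb replicate 3 the highest. Its log2 fold change was 0.77 ± 0.10 (SE, 95% interval 0.55 to 0.99, adjusted p = 0.000499), 1.71-fold on the FPKM scale. Cufflinks divided it among 3 transcripts, and the 2 higher ones moved by 0.87 (adjusted p = 0.00166) and 0.68 (adjusted p = 0.0237), while the third was at 0.39 (adjusted p = 0.396). The estimated fragments behind the gene were 1382 to 1630 per control library.

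Hoxd9 (ENSMUSG00000043342, chr2:74697727-74700208), its neighbour and a paralogue of Hoxa9, Hoxb9 and Hoxc9, measured 7.49, 6.81 and 6.93 FPKM in control, 12, 10.9 and 14 in dbdb, and 12.5, 12 and 13.1 in dbR. The lowest dbdb library was well above the highest control library. The log2 fold change was 0.78 ± 0.09 (SE, 95% interval 0.58 to 0.99, adjusted p = 0.000296), the smallest adjusted p among the members. Hoxd10 (ENSMUSG00000050368, chr2:74691924-74695105), of the paralogue group known from the renal stroma, measured 4.66, 5.96 and 4.39 FPKM in control, 8.55, 8.26 and 9.76 in dbdb, and 7.38, 8.49 and 9.43 in dbR, again without overlap of dbdb and control. It changed by 0.82 ± 0.13 (SE, 95% interval 0.53 to 1.11, adjusted p = 0.00158). Hoxd8, Hoxd9 and Hoxd10 were each called under all 20 other settings tried, which include leaving out each library in turn.

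Hoxd4 (ENSMUSG00000101174, chr2:74711929-74729160), which in the embryo responds to retinoic acid, measured 1.73, 2.34 and 2.21 FPKM in control, 3.17, 4.18 and 5.02 in dbdb, and 4.63, 3.5 and 3.52 in dbR. Groups did not overlap, and within dbdb replicate 3 was the highest and replicate 1 the lowest. The log2 fold change of 0.93 ± 0.18 (SE, 95% interval 0.53 to 1.34, adjusted p = 0.00504) was the largest of the members called. Hoxd3 (ENSMUSG00000079277, chr2:74711927-74748442), whose annotated span overlaps that of Hoxd4, measured 1.17, 1.19 and 1.43 FPKM in control, 2.02, 1.76 and 2.38 in dbdb, and 2.74, 1.56 and 2.28 in dbR. It also did not overlap, with a log2 fold change of 0.66 ± 0.20 (SE, 95% interval 0.22 to 1.10, adjusted p = 0.0326). Its call was lost without control replicate 1 (adjusted p = 0.0864), control replicate 2 (0.0866), dbdb replicate 1 (0.0687) or dbdb replicate 3 (0.0989). The transcripts of Hoxd3 and Hoxd4 with mRNA values share 0 exonic bases, and another annotated transcript of Hoxd4 covers 388 bases of Hoxd3. Hoxd3 also has 347 bases opposite the antisense lncRNA Hoxd3os1, and whether the counting used strand is not given in the sources used here.

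Hoxd11 (ENSMUSG00000042499, chr2:74679557-74687016), next to Hoxd10 on the other side and one of the genes of ureteric bud outgrowth, measured 0.172, 0.277 and 0.304 FPKM in control, 0.203, 0.124 and 0.0564 in dbdb, and 0.57, 0.502 and 0.398 in dbR. dbdb replicate 1 lay above control replicate 1, so the groups overlapped, and the log2 fold change of -0.65 ± 0.29 (SE, 95% interval -1.29 to -0.02, adjusted p = 0.121) did not pass the adjusted threshold. These levels rest on an estimated 5.0 to 9.0 fragments per control library and 1.6 to 5.5 per dbdb library.

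**Figure D4:**
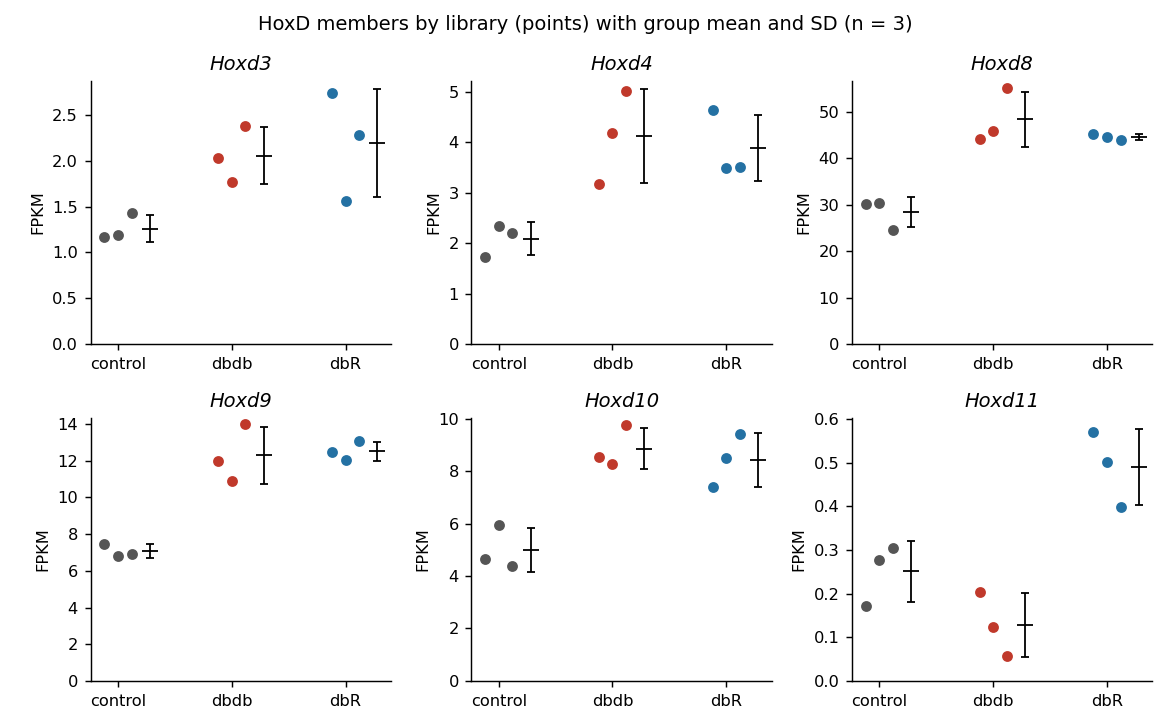
FPKM of the 6 tested HoxD genes on the vertical axis (each panel from 0), by group; points are libraries and the bar is the mean with its SD (n = 3). For Hoxd3, Hoxd4, Hoxd8, Hoxd9 and Hoxd10 no dbdb or dbR library lies as low as a control library, and Hoxd11 is at 0.0564 to 0.203 FPKM in dbdb and 0.398 to 0.570 in dbR.

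In the HoxB cluster (chr11:96194316-96368256, plus strand) the called genes lay towards the posterior end of the expressed block. Hoxb9 (ENSMUSG00000020875) measured 2.73, 2.83 and 2.21 FPKM in control, 4.31, 4.41 and 5.09 in dbdb, and 4.7, 3.76 and 3.36 in dbR. Every dbdb library was above every control library, and the log2 fold change was 0.81 ± 0.14 (SE, 95% interval 0.49 to 1.12, adjusted p = 0.00282). Hoxb8 (ENSMUSG00000056648) measured 7.61, 6.78 and 5.59 FPKM in control, 9.83, 9.01 and 9.53 in dbdb, and 9.64, 9.06 and 8.5 in dbR, without overlap, and changed by 0.51 ± 0.11 (SE, 95% interval 0.27 to 0.75, adjusted p = 0.00697). Between them and Hoxb6 lies Hoxb7, at 14.2, 15.3 and 13.5 FPKM in control, 12.6, 11.1 and 12.2 in dbdb, and 12.5, 15.6 and 12.9 in dbR, in which all dbdb libraries were below all control libraries. Its log2 fold change of -0.26 ± 0.09 (SE, 95% interval -0.47 to -0.05, adjusted p = 0.066) missed the threshold, and it was called only without dbR replicate 2 (adjusted p = 0.0346). Hoxb6 (ENSMUSG00000000690) measured 6.42, 5.99 and 5.8 FPKM in control, 7.57, 7.02 and 7.67 in dbdb, and 7.95, 7.43 and 7.74 in dbR, did not overlap and changed by 0.29 ± 0.07 (SE, 95% interval 0.12 to 0.45, adjusted p = 0.0171). Its call was lost without control replicate 3 (adjusted p = 0.0594), dbdb replicate 1 (0.0505) or dbdb replicate 3 (0.0533). Hoxb2, Hoxb3, Hoxb4 and Hoxb5 lay between 0.08 and 0.36 on the log2 scale and were not called. The reads of Hoxb2 and Hoxb3 could include those of the antisense lncRNA Hoxb3os, which is opposite 953 and 2250 of their exonic bases.

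**Figure D5:**
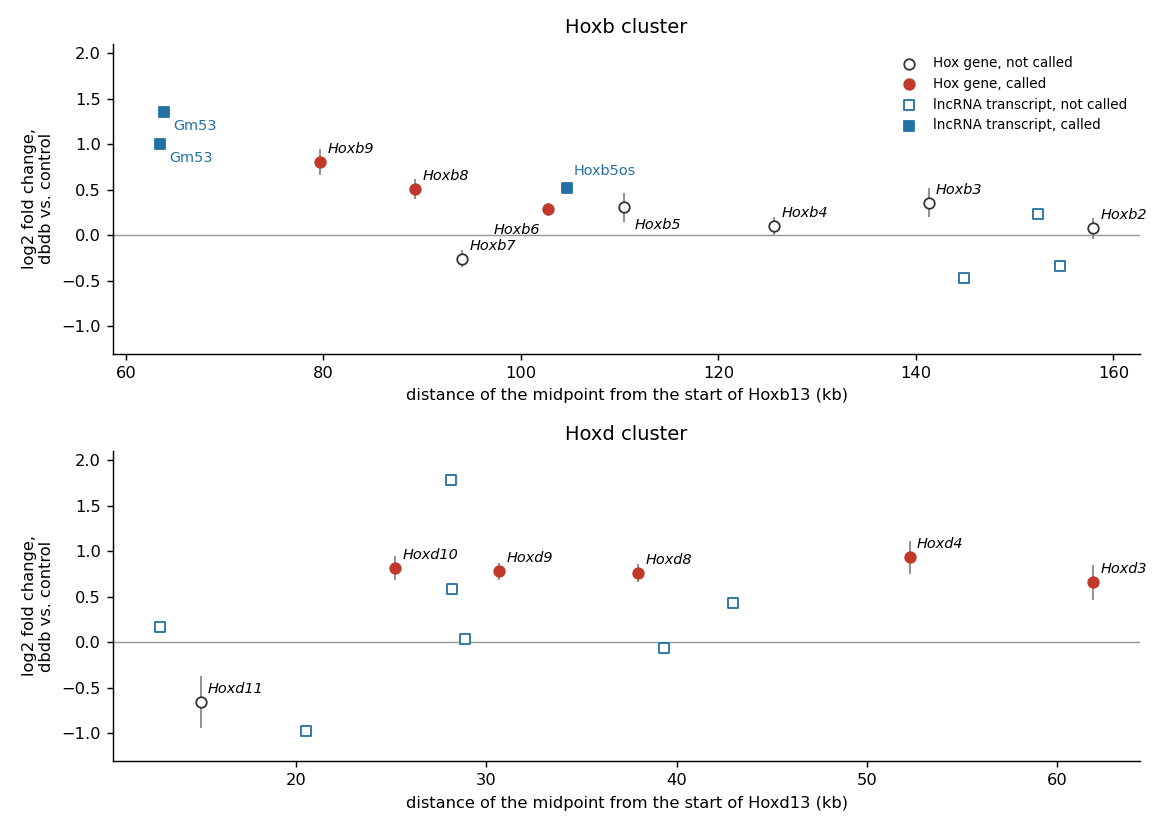
Log2 fold change in dbdb vs. control on the vertical axis against the distance in kb of the midpoint of each gene or lncRNA transcript from the start of Hoxb13 (top) or Hoxd13 (bottom); circles are tested Hox genes with their SE, squares are lncRNA transcripts, and filled symbols have an adjusted p under 0.05. In HoxB, both Gm53 transcripts (1.0 and 1.35) and Hoxb9 (0.81) lie at the posterior side, and in HoxD the 5 filled genes from Hoxd10 to Hoxd3 lie between 0.66 and 0.93.

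HoxC (chr15:102921103-103036852, plus strand) had 2 adjacent genes called. Hoxc8 (ENSMUSG00000001657) measured 1.15, 1.7 and 1.64 FPKM in control, 2.22, 2.41 and 1.92 in dbdb, and 2.15, 2.29 and 1.98 in dbR and did not overlap between dbdb and control. The log2 fold change was 0.53 ± 0.16 (SE, 95% interval 0.18 to 0.88, adjusted p = 0.0316), and the call was lost without control replicate 1 (adjusted p = 0.0837), dbdb replicate 1 (0.0753) or dbdb replicate 2 (0.104). Hoxc9 (ENSMUSG00000036139) measured 2.14, 2.1 and 1.86 FPKM in control, 2.32, 2.93 and 3.15 in dbdb, and 3.22, 2.54 and 2.91 in dbR, again without overlap, and changed by 0.43 ± 0.14 (SE, 95% interval 0.13 to 0.74, adjusted p = 0.0419). It was no longer called without control replicate 1 (adjusted p = 0.0649), control replicate 2 (0.0763), control replicate 3 (0.126), dbdb replicate 2 (0.119), dbdb replicate 3 (0.127) or dbR replicate 3 (0.0603). Hoxc10, the highest HoxC gene at 8.69 ± 0.519 FPKM in control (SD, n = 3) and 8.5 ± 0.637 in dbdb, had a log2 fold change of -0.03 ± 0.10 (SE, 95% interval -0.25 to 0.18, adjusted p = 0.837).

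HoxA (chromosome 6, minus strand) held the member called lower. Hoxa10 (ENSMUSG00000000938), with values given above, was lower in all dbdb libraries than in all control libraries, and its log2 fold change was -0.23 ± 0.07 (SE, 95% interval -0.39 to -0.06, adjusted p = 0.0434), 0.854-fold of control. This call was lost under 75th percentile scaling, under quantile normalization, with mitochondrial genes left out and without the variance trend. It was also lost without any 1 library other than dbR replicate 2 or dbR replicate 3 (adjusted p between 0.0518 and 0.136). Hoxa7 had a log2 fold change of 0.00 ± 0.09 (SE, 95% interval -0.19 to 0.20, adjusted p = 0.987) and Hoxa9 of -0.13 ± 0.09 (SE, 95% interval -0.32 to 0.06, adjusted p = 0.3), and neither was called.

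Genes with the same number in different clusters are given side by side, and differences between them were not tested. In paralogue group 9, Hoxb9 (0.81), Hoxc9 (0.43) and Hoxd9 (0.78) were called higher on the log2 scale, while Hoxa9 lay at -0.13. In group 8, which has no HoxA gene, Hoxb8 (0.51), Hoxc8 (0.53) and Hoxd8 (0.77) were all called higher. In group 10, Hoxd10 (0.82) was higher, Hoxa10 (-0.23) lower and Hoxc10 (-0.03) not called. The 19 members that were tested and not called lay between -0.65 (Hoxd11) and 0.76 (Hoxa2). Of these, Hoxa2 (0.452, 0.481 and 0.242 FPKM in control, 0.668, 0.899 and 0.596 in dbdb, and 1.09, 0.465 and 0.568 in dbR; adjusted p = 0.0964) was higher in dbdb without overlap, and Hoxa6 (1.83, 1.83 and 2.67 FPKM in control, 1.76, 1.72 and 1.79 in dbdb, and 2.51, 1.99 and 1.69 in dbR; adjusted p = 0.363) and Hoxb7 were lower without overlap.

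The comparison dbR vs. control used the same control libraries, so its calls are not independent of those above. In it 12 members were called higher and 1 lower, while 12.3% of all genes tested were called higher and 11.8% lower. With mitochondrial genes left out, the members numbered 14 and 0 and the shares were 16.5% and 6.93%, and with 75th percentile scaling 13 and 0, with 15.2% and 9.19%. By cluster, 5 of 6 HoxD genes, 4 of 8 HoxB genes, 2 of 7 HoxC genes and 1 of 9 HoxA genes were called higher. The median over the 30 members was 0.42 on the log2 scale, beside -0.0014 over all genes tested. Libraries did not overlap for 17 members that were higher in dbR and 2 that were lower, beside 20.8% and 21.1% of all genes. Beyond the members called, Hoxa3, Hoxa4, Hoxb2, Hoxc4 and Hoxd11 were higher and Hoxa10 was lower without overlap, with adjusted p between 0.0502 (Hoxc4) and 0.177 (Hoxa4). Hoxc4 was called higher with 75th percentile scaling, a minimum mean of 1 FPKM, mitochondrial genes left out, a pseudocount of 1, the replicate number as a block, and without dbdb replicate 1, dbdb replicate 3 or dbR replicate 3. Hoxa3 and Hoxa4 have 183 and 255 exonic bases opposite antisense lncRNAs, whose reads their values could include. The count of members called higher fell to 5 without dbR replicate 1, to 7 without control replicate 3, to 7 with quantile normalization (without Hoxa11, Hoxb5, Hoxc8, Hoxc9 and Hoxd3) and to 3 with single transcripts. The shares of all genes called higher were 9.23% without dbR replicate 1, 8.77% without control replicate 3 and 11.8% with quantile normalization. With single transcripts 3.93% of all transcripts were called higher. Hoxa11 and Hoxc8 were not called with the 6 libraries alone or with no filter on low values.

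The 5 HoxD genes called in dbdb were also called in dbR. Hoxd9 changed by 0.81 ± 0.09 (SE, 95% interval 0.61 to 1.02, adjusted p = 0.000278) vs. control, Hoxd8 by 0.65 ± 0.10 (SE, 95% interval 0.43 to 0.88, adjusted p = 0.00134) and Hoxd10 by 0.75 ± 0.13 (SE, 95% interval 0.46 to 1.04, adjusted p = 0.00281). These 3 genes were called under all 20 other settings here too. Hoxd4 changed by 0.86 ± 0.18 (SE, 95% interval 0.45 to 1.27, adjusted p = 0.00784) and Hoxd3 by 0.72 ± 0.20 (SE, 95% interval 0.29 to 1.16, adjusted p = 0.024). The call of Hoxd3 was lost without control replicate 1 (adjusted p = 0.068), control replicate 2 (0.0683), dbR replicate 1 (0.0847) or dbR replicate 3 (0.0708). For all 5 genes every dbR library lay above every control library. Hoxd11 was also higher in every dbR library than in every control library, but its log2 fold change of 0.76 ± 0.29 (SE, 95% interval 0.12 to 1.40, adjusted p = 0.0807) did not pass.

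Of the other clusters, Hoxb6 changed by 0.34 ± 0.07 (SE, adjusted p = 0.00791), Hoxb8 by 0.45 ± 0.11 (SE, adjusted p = 0.0138) and Hoxb9 by 0.58 ± 0.14 (SE, adjusted p = 0.0156) in dbR vs. control. Leaving out dbR replicate 1 ended the call of Hoxb8 (adjusted p = 0.0526). The call of Hoxb9 was lost without control replicate 3 (adjusted p = 0.0554) or dbR replicate 1 (0.0536). Hoxb5 (ENSMUSG00000038700), 3 genes further on in the cluster than Hoxb8, measured 2.13, 1.69 and 1.69 FPKM in control, 1.87, 2.65 and 2.4 in dbdb, and 3.29, 2.67 and 2.47 in dbR. Control and dbR did not overlap, control and dbdb did, and the change was 0.58 ± 0.16 (SE, adjusted p = 0.0258). It was lost without control replicate 2 (adjusted p = 0.0792), control replicate 3 (0.0809), dbR replicate 1 (0.0934) or dbR replicate 2 (0.0547). Hoxc8 changed by 0.51 ± 0.16 (SE, adjusted p = 0.0406), a call lost without any 1 library other than control replicate 2 or dbdb replicate 3 (adjusted p between 0.0505 and 0.117). Hoxc9 changed by 0.48 ± 0.14 (SE, adjusted p = 0.0291), a call lost without control replicate 2 (adjusted p = 0.0589), control replicate 3 (0.0943), dbR replicate 1 (0.102) or dbR replicate 3 (0.0745).

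In HoxA, Hoxa11 (ENSMUSG00000038210), a gene of ureteric bud outgrowth, measured 0.22, 0.302 and 0.363 FPKM in control, 0.45, 0.526 and 0.309 in dbdb, and 0.877, 0.483 and 0.499 in dbR. All dbR libraries were above all control libraries, with dbR replicate 1 far above the others, and the log2 fold change was 0.84 ± 0.27 (SE, 95% interval 0.25 to 1.43, adjusted p = 0.044). It stood on an estimated 13 to 22.2 fragments per control library and 27.3 to 59.4 per dbR library, and the call was lost without any 1 library other than dbdb replicate 3 (adjusted p between 0.0519 and 0.147). Hoxa9 was called lower at -0.27 ± 0.09 (SE, 95% interval -0.46 to -0.08, adjusted p = 0.0479), with dbR libraries below all control libraries. This call was lost with each of the 9 libraries left out (adjusted p between 0.0514 and 0.151) and under 7 of the 11 other settings.

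The comparison dbR vs. dbdb asks what rosiglitazone changed in diabetic mice. With limma, 0 of the 30 Hox genes were called in either direction, and 0.743% of all genes tested were. That share rests on 108 genes, which became 2 without dbR replicate 2, 10 without dbR replicate 3, 36 without dbdb replicate 1, 31 without dbdb replicate 2, 18 with no variance trend and 234 with quantile normalization. The Hox count was 0 in each of these. At an unadjusted p under 0.05 there were 2 members, Hoxd11 and Hoxa7, beside 17.5% of all genes tested. For the 5 HoxD genes called in dbdb the log2 differences were -0.11 ± 0.10 (SE, 95% interval -0.33 to 0.11, adjusted p = 0.598) for Hoxd8, 0.03 ± 0.09 (SE, 95% interval -0.17 to 0.24, adjusted p = 0.891) for Hoxd9 and -0.07 ± 0.13 (SE, 95% interval -0.36 to 0.22, adjusted p = 0.816) for Hoxd10. Those of Hoxd4 and Hoxd3 were -0.07 ± 0.18 (SE, 95% interval -0.48 to 0.34, adjusted p = 0.876) and 0.06 ± 0.20 (SE, 95% interval -0.37 to 0.50, adjusted p = 0.9). The lowest value in these 5 intervals was -0.48, for Hoxd4, and for Hoxd8, Hoxd9 and Hoxd10 it was -0.36. The median over the 30 members was 0.03, beside -0.00219 over all genes tested. The dbdb libraries enter this comparison and dbdb vs. control with opposite sign.

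Hoxd11 stood farthest from 0 in dbR vs. dbdb. All dbR libraries were above all dbdb libraries, an order held by 10.7% of all genes tested, and the mean was 0.128 ± 0.0734 FPKM in dbdb and 0.49 ± 0.0868 in dbR (SD, n = 3). The log2 difference was 1.41 ± 0.29 (SE, 95% interval 0.78 to 2.05, adjusted p = 0.0552), on an estimated 1.6 to 5.5 fragments per dbdb library and 10.6 to 18.8 per dbR library. The log2 difference depends on the pseudocount and was 0.40 with a pseudocount of 1 and 1.998 with 0.01. The adjusted p was 0.0455 with 75th percentile scaling and 0.0488 with a pseudocount of 1, and otherwise between 0.0566 and 0.238. In dbR vs. control Hoxd11 passed with a pseudocount of 1 alone (adjusted p = 0.0373). Hoxa7, at -0.22 ± 0.09 (SE, adjusted p = 0.229), was called in dbR vs. dbdb under 0 of 20 other settings, and 0 other members had groups without overlap there, beside 11.9% of all genes that were lower in dbR without overlap.

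Noncoding transcripts lie between the Hox genes. The deposited lncRNA values held 18 transcripts within the clusters or 10 kb of their ends, 5 in HoxA, 6 in HoxB, 7 in HoxD and 0 in HoxC, and all 18 were tested in a fit of 31858 mRNA and lncRNA transcripts. In dbdb vs. control 3 were called higher and 0 lower, all in HoxB, where 3.08% of the lncRNA transcripts tested were called higher and 3.49% lower. The same counts, 3 and 0, were found in dbR vs. control (3.21% and 3.33% of lncRNA transcripts), and 0 in dbR vs. dbdb, as for all 2496 lncRNA transcripts tested.

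Gm53 lies between Hoxb13 and Hoxb9 on the strand of the Hox genes. Its transcript at chr11:96251644-96264698 measured 1.04, 1.06 and 0.841 FPKM in control, 2.29, 2.88 and 2.81 in dbdb, and 3.45, 2.38 and 2.51 in dbR. No dbdb or dbR library was as low as a control library, and the log2 fold change was 1.35 ± 0.19 (SE, 95% interval 0.92 to 1.77, adjusted p = 0.00346) in dbdb vs. control and 1.40 ± 0.19 (SE, 95% interval 0.97 to 1.82, adjusted p = 0.00338) in dbR vs. control. The second transcript, at chr11:96251105-96264484, changed by 1.0 ± 0.18 (SE, 95% interval 0.58 to 1.42, adjusted p = 0.0129) and 1.07 ± 0.18 (SE, 95% interval 0.65 to 1.5, adjusted p = 0.0103). Both transcripts were called with each of the 9 libraries left out in turn. Hoxb5os, antisense in the middle of HoxB, measured 11, 9.06 and 11.3 FPKM in control, 14, 13.5 and 17.8 in dbdb, and 15.2, 16.2 and 18.3 in dbR. It changed by 0.52 ± 0.13 (SE, 95% interval 0.22 to 0.81, adjusted p = 0.0432) in dbdb vs. control, a call lost with each of the 9 libraries left out (adjusted p between 0.0538 and 0.117). In dbR vs. control it changed by 0.66 ± 0.13 (SE, 95% interval 0.36 to 0.96, adjusted p = 0.0184), and the call was lost without control replicate 2 (adjusted p = 0.0546), dbR replicate 2 (0.0560) or dbR replicate 3 (0.0663).

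Hoxd3os1, the antisense transcript amid the called HoxD genes, was at -0.06 ± 0.21 (SE, 95% interval -0.53 to 0.41, adjusted p = 0.9) for its more abundant transcript in dbdb vs. control. In dbR vs. control that transcript was at 0.27 (adjusted p = 0.508). The less abundant one was at 0.43 (adjusted p = 0.395) in dbdb vs. control. In dbR vs. control it was at 0.83 (adjusted p = 0.112), with all dbR libraries above all control libraries.

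The coding genes that flank the clusters were looked at beside them. The 16 tested genes nearest to the clusters were taken, 2 on each side of each. In dbdb vs. control, where 13.1% of all genes tested were called higher and 13.4% lower, 0 of the 16 were higher and 1 was lower. That gene was Hnrnpa3, 894 kb from HoxD (log2 fold change -0.17, adjusted p = 0.0494), a call lost without any control library, any dbdb library or dbR replicate 3 (adjusted p between 0.0631 and 0.123). Lnp, 88.9 kb before HoxD, was at 0.03 (adjusted p = 0.932), and Mtx2, 60.7 kb after it, at -0.20 (adjusted p = 0.0665). In dbR vs. control 0 were called higher and 2 lower, beside 12.3% and 11.8% of all genes tested. Tax1bp1, 452.8 kb from HoxA, lost its call without control replicate 3 (adjusted p = 0.0702) or dbR replicate 1 (0.0629), and Skap1, 96.3 kb from HoxB, without control replicate 1 (0.0558), control replicate 2 (0.0662), dbR replicate 1 (0.0680) or dbR replicate 3 (0.0685).

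Of the Hox cofactors of the TALE class, 10 of 11 listed genes were tested, with a median log2 fold change of -0.02 in dbdb vs. control. There 2 were higher and 2 lower, beside 13.1% and 13.4% of all genes tested. The higher ones were Pbx3 (log2 fold change 0.41, adjusted p = 0.0158) and Pbx4 (1.97, adjusted p = 0.0369), and the lower ones Meis2 (-0.34, adjusted p = 0.0321) and Pknox1 (-0.50, adjusted p = 0.00783). The call of Pbx3 was lost without dbdb replicate 1 (adjusted p up to 0.0552), that of Pbx4 without control replicate 2, control replicate 3, dbdb replicate 1, dbdb replicate 2 or dbR replicate 3 (adjusted p up to 0.129), and that of Meis2 without control replicate 2, control replicate 3, dbdb replicate 2 or dbdb replicate 3 (adjusted p up to 0.101). Meis1, which also marks the renal stroma, measured 2.1 ± 0.199 FPKM in control, 2.14 ± 0.134 in dbdb and 3.37 ± 0.111 in dbR (SD, n = 3). It was called in dbR vs. dbdb (log2 difference 0.63, adjusted p = 0.0321), alone among the genes of the 5 pathway lists, and the call was lost without control replicate 2, dbdb replicate 1, dbdb replicate 2, dbR replicate 1, dbR replicate 2 or dbR replicate 3 (adjusted p up to 0.149). Of the 86 cell type markers tested, 7 were called higher there and 0 lower, beside 0.564% and 0.179% of all genes. These were the endothelial Emcn (log2 difference 0.66, adjusted p = 0.0205), Kdr (0.52, adjusted p = 0.0309) and Tek (0.42, adjusted p = 0.0479), Pdgfrb of fibroblasts and mesangial cells (0.69, adjusted p = 0.0234), the collecting duct genes Fxyd4 (0.64, adjusted p = 0.0433) and Atp6v1g3 (0.52, adjusted p = 0.0251), and Fabp4 (0.82, adjusted p = 0.045). Fabp4 was the only 1 called of the 3 tested genes of the adipocyte list, and the cells it came from were not tested. Without dbR replicate 2 or dbR replicate 3, 0 of the markers were called higher.

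Polycomb genes had 3 of 27 called higher and 1 lower in dbdb vs. control, with a median of 0.06, and these shares are no higher than the 13.1% and 13.4% of all genes tested. Pcgf2 (log2 fold change 0.39, adjusted p = 0.00537), a subunit of the complex that marks histone H2A, was higher and was called with every library left out in turn. So was Rbbp4 (-0.39, adjusted p = 0.00134), a histone-binding protein of several complexes, which was lower. Phc1 (0.30, adjusted p = 0.0357) lost its call without control replicate 1, control replicate 2, control replicate 3, dbdb replicate 1, dbdb replicate 2 or dbR replicate 3 (adjusted p up to 0.119), and Phc2 (0.32, adjusted p = 0.0201) without control replicate 3, dbdb replicate 2 or dbdb replicate 3 (adjusted p up to 0.0713). In dbR vs. control, where 12.3% of all genes tested were called higher and 11.8% lower, 0 Polycomb genes were called higher and 3 lower. Of these Rbbp4 was called with every library left out in turn, while Bmi1 lost its call without control replicate 1, control replicate 2, dbdb replicate 3, dbR replicate 1 or dbR replicate 2 (adjusted p up to 0.126) and Cbx8 without control replicate 2, control replicate 3, dbR replicate 1, dbR replicate 2 or dbR replicate 3 (adjusted p up to 0.0916).

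The median of 13 trithorax genes and H3K27 demethylases was 0.13 in dbdb vs. control. Of these, 4 were higher and 1 lower, beside 13.1% and 13.4% of all genes tested. Kdm6b, which removes the Polycomb mark H3K27me3, changed by a log2 fold change of 0.42 (adjusted p = 0.00647). Kmt2b, an H3K4 methyltransferase, was at 0.30 (adjusted p = 0.0141). Kmt2d (0.33, adjusted p = 0.0402), another one, lost its call without control replicate 1, control replicate 2, control replicate 3, dbdb replicate 1, dbdb replicate 2, dbdb replicate 3 or dbR replicate 3 (adjusted p up to 0.126). Dot1l (0.35, adjusted p = 0.0164), the H3K79 methyltransferase, lost it without control replicate 3 or dbdb replicate 2 (adjusted p up to 0.0594), and Rbbp5 (-0.27, adjusted p = 0.0307), which was lower, without any control or any dbdb library. In dbR vs. control 0 of the 13 were called, while 12.3% of all genes tested were called higher and 11.8% lower.

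Over all genes tested, 13.1% were called higher and 13.4% lower in dbdb vs. control, and 12.3% and 11.8% in dbR vs. control. Retinoic acid pathway genes had 6 of 15 tested called higher and 1 lower in dbdb vs. control (median 0.23), and 7 and 1 in dbR vs. control (median 0.37). Of those 7, Rarg and Rxra both lost their call without any 1 control library, dbdb replicate 1 or dbR replicate 3. Aldh1a1, an enzyme that makes retinoic acid, measured 30.5 ± 2.9 FPKM in control and 61.1 ± 7.12 in dbdb (log2 fold change 1.0, adjusted p = 0.000211). Stra6, a receptor for retinol uptake, changed by 1.12 (adjusted p = 0.0014) on the log2 scale. Of the receptors that bind with or as retinoic acid receptors, Rxra (0.35, adjusted p = 0.00923) and Rxrg (1.41, adjusted p = 0.000933) were higher, and Rdh10, which makes retinaldehyde, was lower (-0.59, adjusted p = 0.000405). Cyp26b1, which breaks retinoic acid down, changed by 2.17 (adjusted p = 0.015) and lost its call without control replicate 2, control replicate 3 or dbdb replicate 2 (adjusted p up to 0.0536). Rarb (0.39, adjusted p = 0.0286) lost it without control replicate 1, control replicate 3, dbdb replicate 1 or dbdb replicate 2 (adjusted p up to 0.0915).

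The median of 25 tested regulators of kidney development outside the clusters was 0.33 in dbdb vs. control. Of these, 9 were higher and 2 lower, beside 13.1% and 13.4% of all genes tested. Gata3 (log2 fold change 0.78, adjusted p = 0.0018) and Tfcp2l1 (0.82, adjusted p = 0.000731), regulators of the collecting duct, and Foxi1 (0.78, adjusted p = 7.33e-05), the regulator of intercalated cells, were among the higher ones. Sall1 (0.81, adjusted p = 0.00303), Tfap2a (0.84, adjusted p = 0.00495) and Emx1 (0.44, adjusted p = 0.00187) were higher as well, and these 6 were called with every library left out in turn. Pax2 (0.51, adjusted p = 0.0169), a master regulator of the kidney lineage, lost its call without control replicate 3 or dbdb replicate 2 (adjusted p up to 0.0597). Pax8 (0.36, adjusted p = 0.022), another regulator of that lineage, lost it without control replicate 2, control replicate 3, dbdb replicate 2 or dbdb replicate 3 (adjusted p up to 0.0798), and Six4 (0.58, adjusted p = 0.0252) without control replicate 2, control replicate 3, dbdb replicate 1 or dbdb replicate 3 (adjusted p up to 0.0878). The lower ones were Emx2 (-0.30, adjusted p = 0.0263), not called without control replicate 2, control replicate 3 or dbdb replicate 1 (adjusted p up to 0.0866), and Irx3 (-0.37, adjusted p = 0.0434), not called without control replicate 2, control replicate 3, dbdb replicate 1, dbdb replicate 3 or dbR replicate 2 (adjusted p up to 0.135). Of the same 25, 9 were higher and 3 lower in dbR vs. control, beside 12.3% and 11.8% of all genes tested. Irx1 was lower (-0.87, adjusted p = 0.0072) and was called with every library left out in turn, while the lower Emx2 and Irx3 both lost their call without control replicate 2, control replicate 3 or dbR replicate 2. Tcf21 (0.74, adjusted p = 0.0333), a regulator of the renal stroma and podocytes, lost its call without control replicate 2, control replicate 3, dbR replicate 2 or dbR replicate 3 (adjusted p up to 0.115), and Tfap2b (0.39, adjusted p = 0.0395) without control replicate 2, control replicate 3, dbdb replicate 1, dbdb replicate 2, dbR replicate 1 or dbR replicate 2 (adjusted p up to 0.131). Over the 5 lists together, 24 genes were called higher and 7 lower in dbdb vs. control, and 16 of the 31 with every library left out in turn. Without control replicate 3 the counts were 14 higher and 3 lower, without control replicate 2 there were 3 lower, and without dbdb replicate 1 or dbdb replicate 3 there were 4 lower.

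Markers of several cell types of the cortex were called in dbdb vs. control. Of the 86 markers tested 31 were called higher and 17 lower, beside 13.1% and 13.4% of all genes tested. Of the 10 proximal tubule markers 4 were higher and 1 lower, with 2 higher without control replicate 2, dbdb replicate 1 or dbdb replicate 2, and 2 lower without the last of these. Pck1 was at 1.41 (adjusted p = 0.000207) on the log2 scale, Slc5a12 at 0.55 (adjusted p = 0.00106), and Slc22a6, the lower one, at -0.58 (adjusted p = 0.000635). Of the 6 markers of the distal convoluted and connecting tubule 6 were called higher in dbdb vs. control, and their summed level was 246 to 276 FPKM in control, 574 to 711 in dbdb and 560 to 664 in dbR. For the principal cells of the collecting duct 6 of 9 were called higher, with sums of 131 to 154, 202 to 296 and 222 to 241 FPKM. Aqp3 (0.20, adjusted p = 0.336), Elf5 (0.16, adjusted p = 0.663) and Fxyd4 (-0.18, adjusted p = 0.266) were not called. For its intercalated cells 7 of 7 were called higher, with sums of 47.9 to 52.5, 80.0 to 91.4 and 87.4 to 95.2 FPKM. Podocyte markers had 5 of 8 higher (89.6 to 103 FPKM in control and 117 to 123 in dbdb). Leukocyte markers had 6 of 7 lower (18.4 to 21.6 FPKM in control, 6.94 to 8.92 in dbdb and 10.8 to 11.2 in dbR), endothelial markers 4 of 7 lower (2 without control replicate 2), and fibroblast, mesangial and smooth muscle markers 0 of 11 higher and 1 lower (2 lower without control replicate 3 or dbdb replicate 3, and 1 higher without dbdb replicate 2). The 7 urothelial markers, of which 0 of 4 tested were called (2 lower without control replicate 3), summed to 0.316 to 4.58 FPKM in control, with control replicate 1 the highest, 0.466 to 0.759 in dbdb and 0.158 to 0.813 in dbR. Krt5 was listed at 0 in 7 of the 9 libraries and Upk2 in 5. Inner medullary and thin limb markers had 2 of 8 higher and 3 lower, those of the thick limb 1 of 6 in each direction, and adipocyte markers 0 of 3 higher and 1 lower, with Adipoq at 0 in 4 libraries and Plin1 in 5. Without control replicate 3, dbdb replicate 2 or dbdb replicate 3, the adipocyte markers had 0 lower and the thick limb 0 higher. The thick limb had 2 lower without dbdb replicate 3 and 2 higher without dbdb replicate 1. The counts of the distal convoluted and connecting tubule, of principal cells and of intercalated cells were 6, 6 and 7 with each of the 9 libraries left out in turn. Against the same controls, dbR had 36 of the 86 markers higher and 7 lower, beside 12.3% and 11.8% of all genes tested. Higher in dbR were 6 of the distal convoluted and connecting tubule markers, 8 of principal cells (5 without dbR replicate 3) and 7 of intercalated cells. Podocyte markers had 3 higher there (and 1 lower without dbR replicate 2), endothelial markers 3 (1 without control replicate 1, control replicate 3, dbR replicate 1 or dbR replicate 3), fibroblast, mesangial and smooth muscle markers 2 (1 without dbR replicate 2), and leukocyte markers 2 lower. Proximal tubule markers had 2 higher and 1 lower in dbR, and those of the thick limb 3 and 1 (1 higher without control replicate 2, control replicate 3, dbR replicate 1 or dbR replicate 2). Inner medullary and thin limb markers had 2 and 3 (1 higher without control replicate 1, control replicate 3 or dbR replicate 1), and urothelial and adipocyte markers 0 in either direction (2 urothelial markers lower without control replicate 3, and 1 adipocyte marker higher without dbdb replicate 1). The part of these cell types in the Hox differences was not tested.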

How the data were processed

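Total RNA of the renal cortex of 3 mice per group was depleted of ribosomal RNA, and directional libraries were sequenced as 150 bp pairs. The authors aligned the reads to GRCm38.p2 with TopHat2 2.0.9, assembled transcripts with Scripture and Cufflinks 2.1.1, and deposited per-library FPKM values for single transcripts, which rest on how Cufflinks divided reads between them and hold no counts. Groups came from the sample titles. A gene's FPKM is the sum of its mRNA transcripts, genes with a mean of at least 0.1 were kept, and log2(FPKM + 0.1) was fitted with limma 3.58.1 (R 4.3.3) with a variance trend in 1 model of the 9 libraries. Tests are two-sided with Benjamini-Hochberg adjustment over all genes tested. The procedure was checked on simulated data. Depth was estimated from the lowest value of genes with 1 transcript over 1500 bases. Coordinates are those of GENCODE vM21 (GRCm38), and promoters are those of RefSeq (GRCm38.p6), which held 22 of the 38 members. Of the 39 genes the rule takes, 1 is not reported here, nor is 1 gene of a pathway list; both are in no count of members or lists, but stayed in the fits. The members, gene lists and marker lists were chosen with earlier results of these data known. Values in every library are given for members called in any comparison, for the 6 most abundant and for those at the edge of the filter. Of the lists called genes are named; Hoxa2, Hoxa6, Hoxc4, Hoxc10, Hoxd3os1, the second transcripts of Hoxa10 and Hoxb8 and the markers were named after their values were seen. Alternatives changed the pseudocount, filter, scaling, libraries, variance trend, transcript summation and replicate block.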

Additional observations from a re-analysis of the deposited data

How the results depend on the processing

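Same-numbered libraries came from different mice, and whether they share a day is not given in the sources used here. Their deviations from the group means had correlations of -0.17 to 0.06. With the replicate number as a block 9 members were called higher and 1 lower in dbdb vs. control, with 11 and 1 for dbR vs. control and 0 for dbR vs. dbdb. Hoxc9 lost its call in dbdb vs. control (adjusted p = 0.0778), as did Hoxa11 (adjusted p = 0.0762) and Hoxc9 (0.0599) in dbR vs. control, where Hoxc4 was called in addition.

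In dbdb vs. control the 10 members called higher became 3 with single transcripts, all 3 in HoxD in place of 5, and 7 to 10 when each library was left out in turn. The 1 called lower became 0 with 75th percentile scaling, mitochondrial genes left out, no variance trend, quantile normalization or the highest single transcript, and 0 to 2 with a library left out. In dbR vs. control the 12 called higher became 7 with quantile normalization, 3 with single transcripts (3 in HoxD in place of 5), and 5 to 13 with a library left out. The 1 called lower became 0 with the 6 libraries alone, 75th percentile scaling, mitochondrial genes left out, no filter, no variance trend, quantile normalization or single transcripts, and 0 to 1 with a library left out. In dbR vs. dbdb 1 member, Hoxd11 of HoxD, was called higher with 75th percentile scaling and with a pseudocount of 1. Single transcripts stand for the highest of each gene, and the second of Hoxa10 was called lower in both comparisons with control (adjusted p = 0.0392 and 0.0418). That fit adjusts over 31858 transcripts; otherwise the cause was not tested. The scaling without mitochondrial genes moved the median of all genes by 0.15 on the log2 scale in dbdb vs. control. It gave 0.358% of all genes higher and 0.379% lower in dbR vs. dbdb, beside 0.564% and 0.179%.

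Genes of the pathway lists with a library left out, an alternative chosen after seeing the data (as it was for lncRNAs, markers, neighbouring genes and cluster shares), numbered 14 to 25 higher and 3 to 8 lower in dbdb vs. control (24 and 7 with all libraries), 0 to 1 higher in dbR vs. dbdb (1) and 3 to 8 lower in dbR vs. control (8). With quantile normalization and with 75th percentile scaling 2 were called higher in dbR vs. dbdb, and with the latter 4 lower in dbR vs. control. Taking the highest transcript of each gene, HoxA held 31.9%, HoxB 24.5%, HoxC 13.6% and HoxD 30.1% of the summed Hox level, as means over all 9 libraries whatever their group, beside 34.7%, 23.0%, 10.8% and 31.5%. No named member changed sign while called. With 3 libraries a group and FPKM without counts, members under 1 FPKM rest on few fragments, and a p above the threshold does not show equal levels.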
